A study of Rattus norvegicus with 8 samples.

Results

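Livers of obesity-prone (OP) rats were set against livers of obesity-resistant (OR) rats after both had eaten the same high-fat diet for 16 weeks. The comparison holds 8 of the 8 arrays of the series, 4 OP rats and 4 OR rats, taken by their titles. All rats were Wistar, an outbred strain, and 4 rats of each phenotype were picked for profiling. No genetic change or drug separates the groups, so the phenotype on the diet is the only label that differs. Neither the rats' age nor the measure by which they were sorted is stated in the labels. Each rat's liver RNA was labelled with the dye Cy3 and hybridised to its own spotted array together with Cy5-labelled RNA pooled from 4 chow-fed rats. The RNA was amplified before labelling, and the dyes were not swapped on any array. Every ratio below is therefore the log2 of rat over pool, and in OP minus OR the pool cancels. Positive values are higher in the rat, as the dyes are labelled. The authors' deposited ratios have the opposite sign to these, although their series text gives them as rat over control. Should the dye labels be wrong, each direction below would be turned.

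Rats of an outbred colony differ widely in weight gain on energy-dense food, and the sorting of animals into prone and resistant ones is a common model of human diet-induced obesity. The liver takes up dietary fat, oxidises fatty acids in mitochondria and peroxisomes, makes new fatty acids and cholesterol, and exports lipid in lipoproteins. A whole-liver extract contains hepatocytes together with Kupffer, stellate, endothelial and bile duct cells. In such an extract, fewer cells of a type and less RNA per cell cannot be told apart. The files do not pair any spot with a gene, so pathway genes and the markers that would check the tissue could not be looked up. Spots are named by their place on the array, where Sr gives the row of the subgrid, Sc its column, and R and C the row and column of the spot inside it.

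A spot entered the comparison when its mean signal exceeded the mean of its local background by 2 background standard deviations in both channels of all 8 arrays. Of 12288 spots on each array, 8707 (70.9%) met this rule and 8700 had at least 3 values in each group. A further 924 spots missed the rule in a single channel of a single array. These near misses were dimmer, with a median mean log2 intensity of 7.39 against 8.92 inside the rule. An unadjusted p under 0.05 for OP against OR in limma was found at 12.6% of them and at 23.9% of the tested spots. Requiring signal in the rats of both groups leaves out transcripts that were near background in one phenotype.

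The arrays themselves differed in ways that followed the groups. Median Cy5 signal, from the same pool throughout, was 361 to 443 on OP arrays and 465 to 616 on OR arrays, and before normalization the median log2 ratio over the tested spots was -0.73 to -0.70 on OP arrays and -0.69 to -0.55 on OR arrays. Neither measure overlapped between the groups (exact two-sided permutation p = 0.0286 for each, adjusted p = 0.129 over 9 measures). The 9 measures cover detection, signal and background in each channel, flagged spots, and the centre and spread of the ratios, and the smallest adjusted p among them was 0.129. All 4 OP slides carry numbers from 1 run and the OR slides come from 2 other runs, so slide run and phenotype cannot be told apart. Images were quantified on 3 days, of which the first held 2 OP arrays, the second 2 OP arrays and 1 OR array, and the third 3 OR arrays.

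On average, liver profiles were more alike within a phenotype than between phenotypes, most clearly among OP rats. Over the 8573 spots with a value on every array, Pearson's r averaged 0.657 between OP rats (0.564 to 0.755), 0.460 between OR rats (0.385 to 0.651) and 0.369 between an OP and an OR rat (0.233 to 0.476). The highest value among OR rats, 0.651, was between rats 2 and 3, and the lowest, 0.385, between rats 3 and 4. OR rats 2, 3 and 4 all share a quantification day and a slide run. All OP arrays share another slide run, which holds no OR array. Likeness within OP is therefore also likeness within a slide run, and each pair of an OP and an OR rat is also between runs. OR rat 4 was about as close to the OP rats as to its own group. Its r was 0.501, 0.423 and 0.385 with OR rats 1 to 3 and 0.454, 0.473, 0.369 and 0.439 with OP rats 1 to 4. These are correlations across spots, which are not independent replicates and share the pool. The mean within groups exceeded that between groups by 0.190 (exact two-sided permutation p = 0.0286), the lowest p that the 70 assignments of 8 arrays allow. Without OP rat 3 the excess was 0.184 and its exact permutation p 0.0571, where 0.0286 is again the smallest possible. In the Cy5 channel alone, which held the pool, the excess was 0.153 (exact permutation p = 0.171).

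The first principal component carried 39.3% of the variance and placed the phenotypes on opposite sides of 0. OP rats scored -8.58 (rat 1), -12.45 (rat 2), -1.17 (rat 3) and -17.48 (rat 4). OR rats scored 13.31 (rat 1), 9.52 (rat 2), 11.13 (rat 3) and 5.72 (rat 4). OP rat 3 was thus the OP liver nearest to the OR livers, and OP rat 4 and OR rat 1 lay farthest apart. The second component carried 17.3% and divided the OR livers, with OR rat 1 at 12.66 and OR rat 4 at 5.26 and OR rats 2 and 3 at -9.31 and -8.92.

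**Figure D1:**
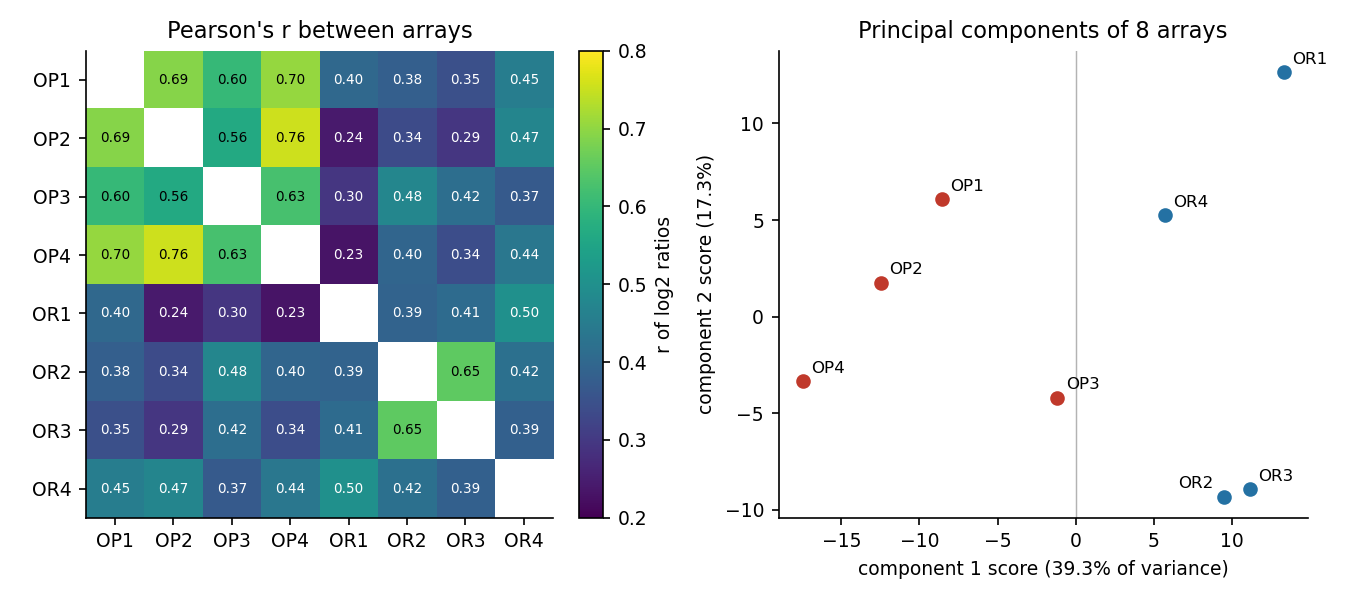
Left, Pearson's r of the log2 ratios (rat over pool) between each pair of arrays over 8573 spots, with the diagonal left blank. Right, scores of the 8 arrays on the first 2 principal components, which carry 39.3% and 17.3% of the variance (red, OP; blue, OR); the OP arrays lie below 0 and the OR arrays above 0 on the first.

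OP and OR livers differed at 458 of 8700 spots (5.26%) at an adjusted p under 0.05 in limma. Of these, 164 (1.89%) were higher in OP and 294 (3.38%) were lower in OP. The differences were modest, with a median of 1.34-fold (log2 0.43) and a range from 1.16-fold to 1.86-fold. A difference of at least 1.5-fold was found at 87 called spots, 11 higher and 76 lower. Over all tested spots the median absolute difference was 0.11 on the log2 scale and the median difference 0.00392. The lowest adjusted p was 0.0311, shared by 43 spots, so the called spots lie close under the threshold. At an unadjusted p under 0.05 there were 2076 spots (23.9%), 1072 higher and 1004 lower. This split depended on the scaling, since median centring gave 490 higher and 1540 lower.

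The count of 458 rested on the full set of rats. It was 0 in limma without OP rat 1, OP rat 2, OP rat 4, OR rat 1, OR rat 3 or OR rat 4, each left out in turn, 17 without OR rat 2 and 834 without OP rat 3. Without OP rat 3 more of the calls were higher (470) than lower (364) in OP. In these fits 1675 to 2040 spots had an unadjusted p under 0.05. With OP rat 4 and OR rat 1 both left out, a fit added after the values were seen, the count was 195 (46 higher, 149 lower), and 156 of these were among the 458. With the slide run as a random block, or within the one day that held both groups (2 OP arrays and 1 OR array, whose spread is assumed to equal that of the OP arrays), the count was 0 in limma, with 1605 and 1085 spots at an unadjusted p under 0.05. The day fitted as a block gave 16 spots, all lower in OP, and 0 of the 458 were among them, although 403 of the 458 kept an unadjusted p under 0.05. In that fit only the second day compares the groups, so its differences rest on OP rats 3 and 4 against OR rat 1. It is therefore no separate check from the fit within that day, and OP rat 4 and OR rat 1 lay farthest apart on the first component. The day as a random block gave 579 spots (estimated correlation -0.069), and all 458 were among them. Median centring in place of loess gave 741, of which 72 were higher and 669 lower.

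At 1436 of the 8573 complete spots (16.8%) the ranges of the 4 OP and the 4 OR livers were fully apart. All OP rats lay above all OR rats at 591 (6.89%) and below them at 845 (9.86%). At 74 tested spots every OP rat was above the chow pool and every OR rat below it, and at 145 spots every OP rat was below and every OR rat above. Of these, 28 and 75 were among the called spots. The groups did not overlap at any of the 458 called spots, which were chosen by the same difference.

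The largest call in favour of OP was at spot Sr05Sc01R10C05, which was below the chow pool in both phenotypes. Its log2 ratio was -0.30, -0.23, -0.03 and -0.58 in OP rats 1 to 4 and -0.83, -1.52, -1.43 and -0.89 in OR rats 1 to 4. The fall against the pool was smaller in every OP rat than in any OR rat. OP exceeded OR by 0.88 (SE 0.18), or 1.84-fold, with a limma adjusted p of 0.0409.

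Spot Sr08Sc03R11C04 was next and was above the pool in OP. Its log2 ratio was 1.18, 1.23, 0.41 and 1.15 in OP rats 1 to 4 and 0.32, -0.12, 0.07 and 0.39 in OR rats 1 to 4. OP rat 3 stood apart from the other OP rats and was only 0.0269 above the highest OR rat. The difference was 0.83 (SE 0.19), or 1.78-fold, with a limma adjusted p of 0.0458.

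The other 8 leading spots higher in OP differed by 0.60 to 0.80 on the log2 scale. Across all 10 leading higher spots the OP mean was above the pool and the OR mean below it at 6, both were above it at 3 and both below it at 1. The spot ranked seventh had the highest ratios of all 20 leading spots. It read 2.29, 1.80, 1.68 and 2.09 in OP rats 1 to 4 and 1.24, 1.58, 1.12 and 1.43 in OR rats 1 to 4, so it was above the pool in all 8 rats and more so in OP. The spot ranked eighth had a narrow spread in OP, 0.69 ± 0.05 (SD, n = 4), against 0.08 ± 0.18 (SD, n = 4) in OR. It differed by 0.60 (SE 0.09, limma adjusted p = 0.0311).

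The largest call against OP was at spot Sr11Sc01R14C15, where the OP livers were below the chow pool and the OR livers above it. Its log2 ratio was -0.53, -0.63, -0.42 and -1.08 in OP rats 1 to 4 and 0.65, 0.06, 0.06 and 0.16 in OR rats 1 to 4. The groups were separated by a gap of 0.48, with OP rat 4 lowest and OR rat 1 highest. OP minus OR was -0.90 (SE 0.17), a 1.86-fold difference with a limma adjusted p of 0.0377.

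Spot Sr11Sc02R10C07, a very bright spot, read -0.31, -0.67, -0.46 and -1.31 in OP rats 1 to 4 and 0.40, 0.10, 0.08 and 0.21 in OR rats 1 to 4. It had the same order of rats at the extremes, with OP rat 4 lowest and OR rat 1 highest. OP minus OR was -0.89 (SE 0.19), with a limma adjusted p of 0.0442. Bright as it was, this spot was not among the 438 called spots that met a stricter detection rule of 4 background standard deviations.

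**Figure D2:**
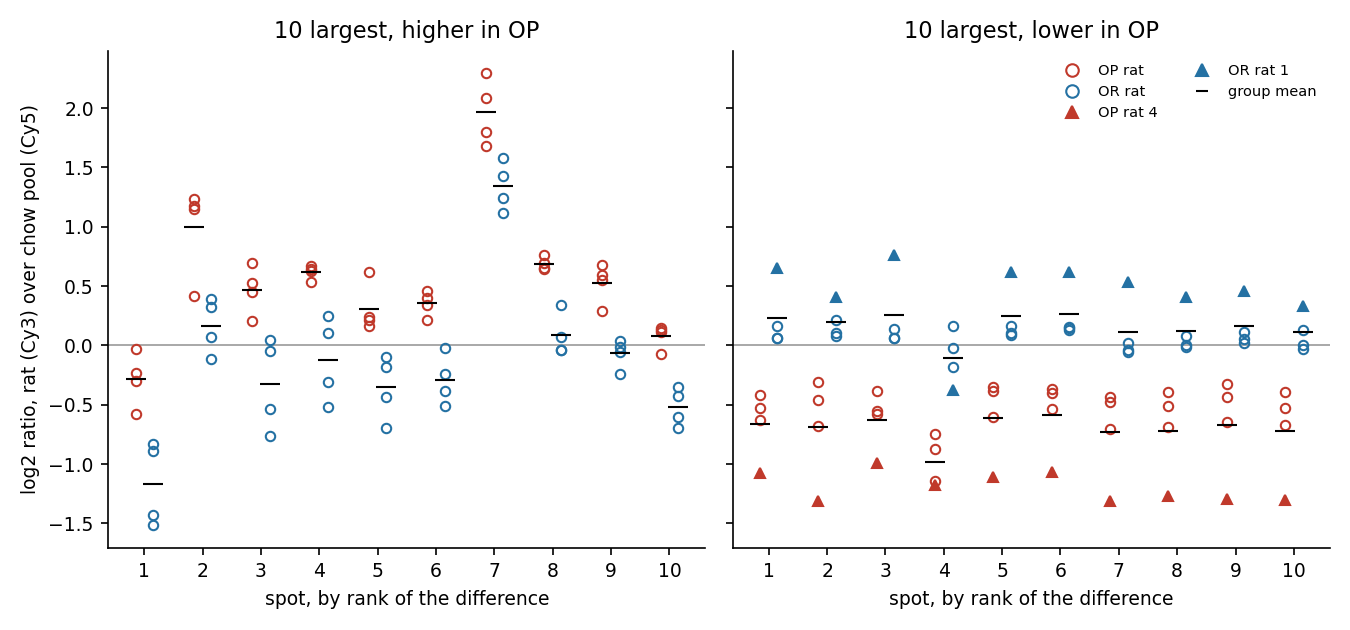
Log2 ratio of each rat over the chow pool at the 10 called spots with the largest difference in each direction, ranked by size (red, OP; blue, OR; black dashes, group means; triangles on the right, OP rat 4 and OR rat 1). These spots were chosen among those where the groups do not overlap. On the right OP rat 4 is lowest at all 10 and OR rat 1 highest at 9.

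Most of the leading spots lower in OP had nearly one profile over the rats. The 10 lay in 8 subgrids, over 5 subgrid rows. OP minus OR ran only from -0.90 to -0.83 over the 10. OP rat 4 was the lowest OP rat at all 10 and OR rat 1 the highest OR rat at 9. Pearson's r over the 8 arrays between pairs of these spots had a median of 0.984 (45 pairs), against 0.815 between the 10 leading higher spots. The lowest r was 0.719 among the lower spots and 0.584 among the higher spots. The points share the arrays and the contrast by which the spots were ranked, so these correlations are descriptions. The files mark no spot as a control or a repeat, so copies of one sequence may be among them and counts of spots are not counts of transcripts.

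The same pair of rats stood at the ends in the whole lower set. Among its 294 spots OP rat 4 was the lowest OP rat at 244 (83.0%) and OR rat 1 the highest OR rat at 235 (79.9%), whereas over all tested spots these shares were 35.3% and 32.6%. Median log2 ratios of the lower set were -0.37, -0.40, -0.33 and -0.63 in OP rats 1 to 4 and 0.22, -0.02, 0.01 and 0.03 in OR rats 1 to 4. OR rats 2 to 4 were thus close to the pool, and all 4 OP livers were below it. At 212 of the 294 spots the OP mean was below the pool and the OR mean above it, at 77 both were below and at 5 both above.

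The 164 spots higher in OP had no such ordering within OP. Their median log2 ratios were 0.30, 0.34, 0.35 and 0.33 in OP rats 1 to 4 and -0.09, 0.02, -0.02 and -0.03 in OR rats 1 to 4. OR rat 1 was the lowest OR rat at 81 of them (49.4%), against 32.4% over all tested spots. The OP mean was above the pool and the OR mean below it at 80, both were above it at 73 and both below it at 11. In both sets the OP mean was usually farther from the pool than the OR mean, at 133 of 164 higher spots and 274 of 294 lower spots, against 5286 of 8700 tested spots. The pool enters both means and the spots were chosen by their difference, so these counts are not tests against chow.

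**Figure D3:**
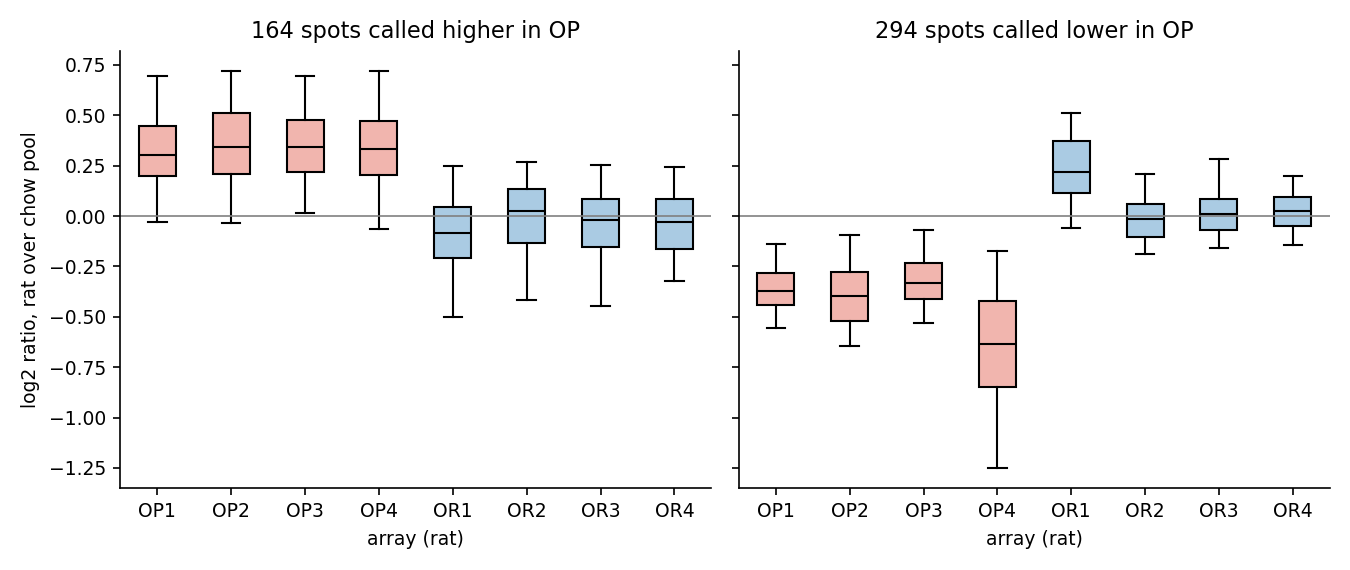
Log2 ratio over the chow pool on each array for the 164 spots called higher and the 294 spots called lower in OP (line, median; box, quartiles; whiskers, 5th to 95th percentile of spots; red, OP; blue, OR). In the lower set the medians are lowest in OP4 (-0.63) and highest in OR1 (0.22), and in the higher set the 4 OP medians lie within 0.30 to 0.35.

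Each channel was then read alone, after quantile normalization of its intensities between arrays. In Cy3, OP minus OR had the direction of the call at 143 of 164 higher spots (median 0.41) and at 273 of 294 lower spots (median -0.48). In Cy5, which held one pool on all arrays, the medians were 0.06 and -0.02. OP exceeded OR there at 91 of the 164 higher spots and at 139 of the 294 lower spots. The calls were made on Cy3 over Cy5, so the choice of spots favours these signs. In Cy3 alone 39 of the 458 spots passed an adjusted p of 0.05 in limma, and the unadjusted p was under 0.05 at 240. At some called spots Cy5 differed more than Cy3, as at the higher spot of rank 4, where OP minus OR was -0.12 in Cy3 and -0.88 in Cy5.

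Tested over all 8700 spots, the Cy3 channel alone gave 79 spots (0.908%) at an adjusted p under 0.05 in limma, 23 higher and 56 lower in OP, and 1458 (16.8%) at an unadjusted p under 0.05. The Cy5 channel alone gave 0 (0%) in limma and 832 (9.56%) at an unadjusted p under 0.05. Groups did not overlap at 9.2% of complete spots in Cy3 and at 4.84% in Cy5. The pool channel thus also differed between OP and OR arrays at more spots than the 435 that a threshold of 0.05 gives among 8700 independent unchanged spots. The part of this array difference in the OP against OR calls was not tested.

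The 4 spots named above did not behave alike in the channels. At Sr11Sc01R14C15 the log2 Cy3 intensity averaged 10.04 in OP and 11.19 in OR, a difference of -1.15 (limma adjusted p = 0.0277 over Cy3 values), while Cy5 differed by -0.25 (limma adjusted p = 0.699). At Sr11Sc02R10C07 Cy3 differed by -1.62 (limma adjusted p = 0.0277) and Cy5 by -0.86 (limma adjusted p = 0.399), so both dyes were dimmer on OP arrays. At Sr05Sc01R10C05 Cy3 differed by 0.54 (limma adjusted p = 0.239) and Cy5 by -0.29 (limma adjusted p = 0.708). At Sr08Sc03R11C04 the values were 0.67 (limma adjusted p = 0.233) and -0.16 (limma adjusted p = 0.855).

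**Figure D4:**
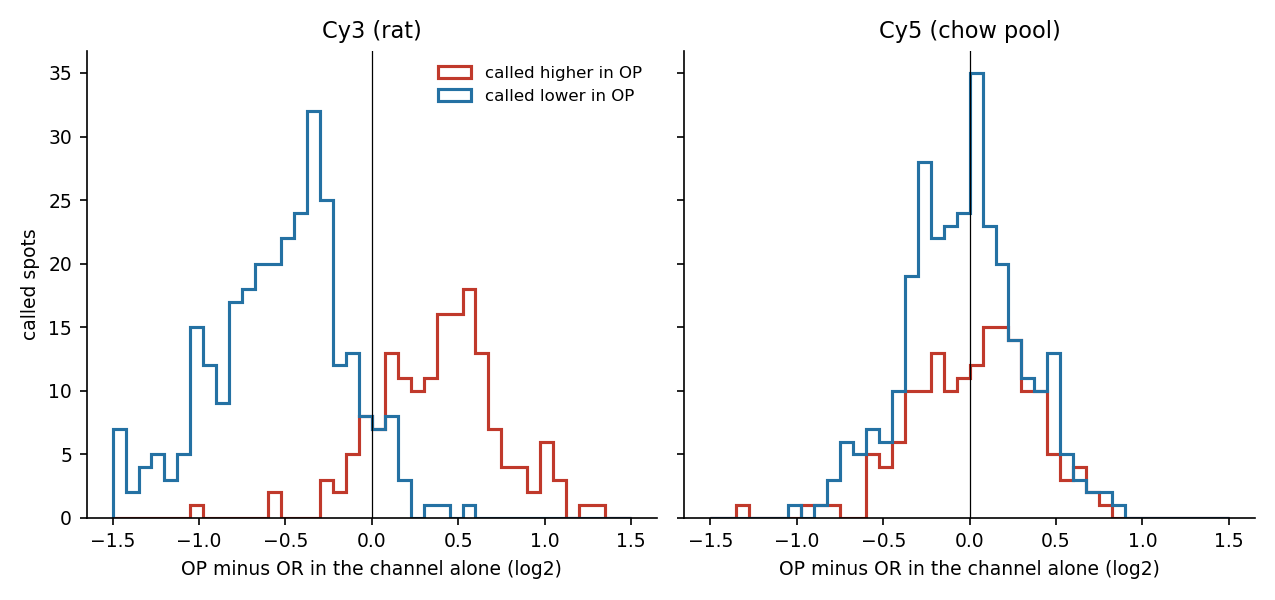
Distribution over called spots of OP minus OR (log2) in the Cy3 channel (rat) and in the Cy5 channel (chow pool), each normalized alone (red, 164 spots called higher in OP; blue, 294 called lower; values beyond 1.5 drawn at the edge). The sets separate in Cy3, with medians of 0.41 and -0.48, and lie over each other in Cy5, with medians of 0.06 and -0.02.

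Calls were more frequent among bright spots. Tested spots were put in 5 classes of equal size by mean log2 intensity, and the share called was 0.977%, 2.01%, 3.39%, 7.82% and 12.1% from the dimmest to the brightest. In the brightest class 67 spots were called higher and 144 lower, and the median absolute difference was 0.20, against 0.08 in the dimmest. The residual spread within groups had a median of 0.14 in the brightest class and 0.11 in the dimmest.

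The brightest spots reached far below 0. Of 679 tested spots with a mean log2 intensity over 12, 88 (13.0%) were at least 1.5-fold lower in OP, of which 34 were called. That fold marks no gap, since the lower decile of the other bright spots was -0.42. Over the 88, median log2 ratios were -0.38, -0.60, -0.45 and -1.22 in OP rats 1 to 4 and 0.39, -0.06, -0.02 and 0.04 in OR rats 1 to 4. OP rat 4 was the lowest OP rat at 86 and OR rat 1 the highest OR rat at 85 of the 88. The 88 spots lay in 40 of the 48 subgrids. The remaining 591 bright spots had a median OP minus OR of 0.09, which became -0.12 under median centring, so the sign of small differences at bright spots depends on how ratios were normalized. The median of the 88 was -0.73 with loess and -0.95 with median centring.

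**Figure D5:**
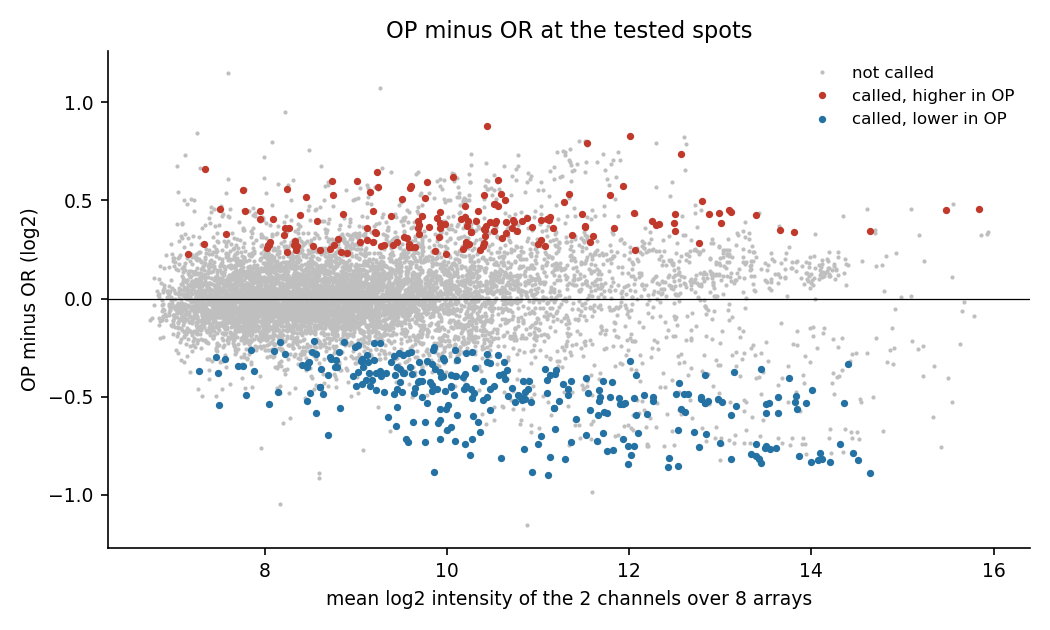
OP minus OR (log2) against the mean log2 intensity of both channels at the 8700 tested spots (grey, not called; red, 164 called higher in OP; blue, 294 called lower). Called spots are more frequent at high intensity, and 88 of the spots brighter than 12 lie at least 1.5-fold below 0.

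Called spots were found all over the array. Every one of the 48 subgrids held at least 3 of them, with a median of 9 and a maximum of 21, or 1.51% to 12.2% of the tested spots of a subgrid. The directions were not spread alike over the subgrids. In subgrid column 3, subgrid rows 1 to 6 held 0, 0, 1, 1, 1 and 2 spots lower in OP and 3, 6, 8, 2, 3 and 2 higher. Subgrid Sr11Sc02 held 19 lower and 2 higher. Spots lower in OP were also spread unevenly over the rows within subgrids. In rows 7 to 16 they made up 4.70% of 5513 tested spots and in rows 1 to 6 1.10% of 3187, whereas spots higher in OP made up 1.98% and 1.73%. The highest shares of lower spots were in row 15 (7.71%), row 13 (7.43%) and row 12 (7.26%). Row 1 held 1 called spot among 509, although 48.5% of its tested spots were in the brightest class. In subgrids Sr01Sc01 to Sr01Sc04 the tested spots of row 1 stood mostly in the same columns, with mostly like ratios. At R01C07, for example, OP rat 4 read -0.54, -0.51, -0.55 and -0.60 there. The 509 may therefore be repeats of a few features and cannot be counted as independent spots. They also enter the share for rows 1 to 6 and the intensity classes. What was printed in each row is not stated in the labels.

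The authors' own processed ratios gave few calls. With their sign turned to rat over pool, 2 of 10111 rows (0.0198%) passed an adjusted p of 0.05 in limma, 1 higher and 1 lower in OP, and 2049 (20.3%) had an unadjusted p under 0.05, 933 higher and 1116 lower. That table carries no measure of detection, so its rows could not be restricted to bright spots. With no detection filter, the scanner values likewise gave 0 calls among 12261 spots in limma and 2291 spots with an unadjusted p under 0.05. The lowest adjusted p was then 0.0697.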

How the data were processed

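Liver RNA of 8 rats was measured on 8 two-colour arrays. The deposited scanner files hold spot intensity per channel, quantified with ImaGene 5.1 (the series text names an earlier version) and neither background-subtracted nor normalized, per the file headers. The deposited value table holds log ratios (taken as log2) that the authors background-subtracted and LOWESS-normalized, per the labels' series text. Their base and missing-value rule are unknown. Direction was checked by matching table rows to spots on 7 arrays and comparing the array left out, over 9109 complete rows. With the sign turned, 1302 to 2391 rows matched a spot, and r with log2(Cy3/Cy5) was -0.996 to -0.979. With the sign as deposited, 52 to 81 rows matched, and r was 0.191 to 0.694. Of 12288 row identifiers, which are serial numbers, 13 coincide in letters with symbols or synonyms of the RefSeq gene table. They were not used as names, and gene lists and cell markers were not run.

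Signal means and background medians were corrected by normexp (offset 50), and ratios were normalized by loess within each array (limma 3.58.1, R 4.3.3). Spots with flag 1 (447 values, 0.455%) were set missing. OP and OR were compared with lmFit and eBayes (6 residual and 3.16 prior degrees of freedom) and Benjamini-Hochberg adjustment over 8700 spots. Single values were compared by exact permutation over 70 assignments. Nothing beyond the rat numbers says how the livers were sampled, so p-values measure the spread between these samples. The number of arrays limits precision.

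Spots were named as the largest called differences without overlap, 10 per direction, of which 2 per direction are printed by position because no gene is paired. The comparison, its filter and its alternatives were chosen with earlier results of these data known. On simulated data for OP against OR over 8700 spots, the fit recovered 78% of 200 spots changed by 0.5, 99% of those changed by 1 and 0% of those changed by 0.25 on the log2 scale. False calls numbered 7, 14 and 0. The simulated noise was normal and independent between spots, without array or slide run effects. The shares recovered therefore check the fit and do not give the power of the real comparison. Alternatives covered normalization, background, filters, channels, blocks and rats left out.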

Additional observations from a re-analysis of the deposited data

Results flagged for a closer look

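Of 26 sets of 4 values, 5 held 1 array far from the other 3, by a gap above Dixon's 95% critical value, which chance gives for about 1 set in 20. The median Cy3 signal was 347 for OP rat 1 and no higher than 260 for OP rats 2 to 4. Its median Cy3 background was 171, where theirs reached 89. OP rat 2 had 94 flag 1 spots, and the next OP rat 17. The median Cy5 signal was 616 for OR rat 4, and the next OR rat was at 486. At spot Sr08Sc03R11C04, OP rat 3 read 0.41 where the nearest OP rat read 1.15.

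The 4 named spots were chosen as the largest called differences of the limma fit, so their values describe the choice and add no test. OP minus OR was 0.88 at Sr05Sc01R10C05, 0.83 at Sr08Sc03R11C04, -0.90 at Sr11Sc01R14C15 and -0.89 at Sr11Sc02R10C07, with limma adjusted p-values of 0.0409, 0.0458, 0.0377 and 0.0442.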

How the results depend on the processing

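The 458 spots called between OP and OR in limma numbered 741 with median centring, 87 at 1.5-fold or more and 79 in Cy3 alone. With day as a fixed block, where only the second day compares the groups, they numbered 16. They numbered 2 in the authors' values and 195 without OP rat 4 and OR rat 1 (chosen after seeing the data). They numbered 0 in limma with no detection filter (2291 at an unadjusted p under 0.05), the wider filter (2296), the slide run as a random block (1605), Cy5 alone (832) and within the second day (1085). With 1 rat left out the count ran from 0 to 834 and the unadjusted count from 1675 to 2040. The looser filters let in dimmer spots, and leaving out a rat removes an array. The cause of the shifts was not tested for any setting. The remaining 11 settings stayed within 1.5 times of 458, and 28 of 30 settings did so for the unadjusted 2076. Among called spots, 64.2% were lower in OP, and 90.3% with median centring. The replicate block gave 0 calls in limma, with 2166 spots at an unadjusted p under 0.05. Deviations of same-numbered rats correlated at r of 0.256, -0.084, 0.121 and 0.079. The labels name no pairing of rats by number, so this block fitted a pairing that they do not state. Why the calls were lost with it was not tested. Numbers 1 and 3, 2 of the 4, had their own number as the best match. The excess of array likeness within groups was 0.153 in Cy5 alone (exact permutation p = 0.171; the cause was not tested). Leaving out single rats gave 0.139 to 0.252. At Sr05Sc01R10C05 and Sr08Sc03R11C04 the sign turned in Cy5 alone (-0.29 and -0.16), the channel of the pool. Over 115 values of the 4 named spots, 51 kept their call, 62 lost it and 2 reversed. Signal over background limits dim spots.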
